A study of Mus musculus with 8 samples.

Results

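The comparison described here sets 2 arrays of cells given Torin1 against 2 control arrays, 4 of the 8 arrays of the series. The arrays were taken by their treatment labels, and no measured value was used to choose them. The cells were J774.1, a macrophage-like line of the BALB/c mouse strain, with 2 biological replicates in each group. Torin1 was given at 1 µM for 6 h, tamarixetin at 10 µM for 6 h and isorhamnetin at 10 µM for 6 h. All 4 groups are of the same line, and the labels name no engineered allele. The labels name no vehicle and no time for the control cells. RNA was labelled with Cy3 alone and read on Agilent mouse arrays.

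Torin1 competes with ATP at the catalytic site of mTOR, the kinase of the complexes mTORC1 and mTORC2. mTORC1 sits on the lysosome and promotes protein, lipid and nucleotide synthesis when amino acids and growth factors are plentiful, and it holds autophagy in check. It phosphorylates the transcription factors TFEB, TFE3 and MITF, which keeps them in the cytosol, and many of their target genes encode lysosomal and autophagy proteins. mTORC1 also raises the output of ATF4, a factor for amino acid synthesis and uptake genes, and of the SREBP factors, which drive sterol and fatty acid synthesis. mTORC2 activates AKT, which keeps FOXO factors out of the nucleus. All of this is background from other work and was not measured here.

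The promoters below are shown because they hold the letters of 2 DNA elements tied to these pathways, in genes called higher or lower in the comparison. They were picked after the values were seen. Each run is the 250 bases before the RefSeq start site in the mouse assembly GRCm38.p6, written in the direction of transcription. The first 3 belong to lysosomal genes and have in capitals TCACGTGA, a core of the element bound by TFEB and its relatives. Ctsd encodes the protease cathepsin D (chr7:142387828-142388077, minus strand), Atp6v1a the catalytic subunit of the proton pump (chr16:44139260-44139509, minus strand), and Mcoln1 a lysosomal calcium channel (chr8:3500269-3500518, plus strand).
Ctsd: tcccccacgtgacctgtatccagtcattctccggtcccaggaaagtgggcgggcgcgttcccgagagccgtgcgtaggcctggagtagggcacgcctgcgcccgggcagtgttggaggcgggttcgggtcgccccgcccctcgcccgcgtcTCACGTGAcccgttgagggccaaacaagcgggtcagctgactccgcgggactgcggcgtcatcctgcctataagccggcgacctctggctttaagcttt
Atp6v1a: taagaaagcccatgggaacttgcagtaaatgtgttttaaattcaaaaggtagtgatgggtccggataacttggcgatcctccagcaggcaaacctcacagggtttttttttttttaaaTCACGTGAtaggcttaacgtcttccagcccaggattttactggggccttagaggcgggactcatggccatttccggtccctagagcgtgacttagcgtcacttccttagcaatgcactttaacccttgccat
Mcoln1: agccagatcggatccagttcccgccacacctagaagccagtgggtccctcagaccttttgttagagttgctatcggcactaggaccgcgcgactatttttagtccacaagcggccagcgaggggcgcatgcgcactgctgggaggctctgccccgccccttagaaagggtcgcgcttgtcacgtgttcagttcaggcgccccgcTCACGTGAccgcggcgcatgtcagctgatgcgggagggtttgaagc
The capitals begin 99, 132 and 46 bases before the start sites of Ctsd, Atp6v1a and Mcoln1, in that order. The next 3 belong to genes of the ATF4 program and have in capitals a core of the composite element bound by ATF4 with C/EBP proteins, here on the opposite strand, TTGCATCA. Chac1 encodes a glutathione-degrading enzyme (chr2:119350992-119351241, plus strand), Nupr1 a small stress-induced nuclear protein (chr7:126625471-126625720, minus strand), and Atf3 a stress-induced transcription factor (chr1:191183334-191183583, minus strand).
Chac1: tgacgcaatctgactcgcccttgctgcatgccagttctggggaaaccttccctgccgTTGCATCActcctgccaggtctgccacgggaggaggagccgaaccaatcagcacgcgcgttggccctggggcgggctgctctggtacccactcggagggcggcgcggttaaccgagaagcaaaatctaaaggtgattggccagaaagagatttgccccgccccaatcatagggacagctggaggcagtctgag
Nupr1: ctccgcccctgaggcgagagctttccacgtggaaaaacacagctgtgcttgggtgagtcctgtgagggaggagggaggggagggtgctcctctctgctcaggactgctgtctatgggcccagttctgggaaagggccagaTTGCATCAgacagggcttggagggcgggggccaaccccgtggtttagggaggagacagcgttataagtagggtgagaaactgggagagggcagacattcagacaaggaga
Atf3: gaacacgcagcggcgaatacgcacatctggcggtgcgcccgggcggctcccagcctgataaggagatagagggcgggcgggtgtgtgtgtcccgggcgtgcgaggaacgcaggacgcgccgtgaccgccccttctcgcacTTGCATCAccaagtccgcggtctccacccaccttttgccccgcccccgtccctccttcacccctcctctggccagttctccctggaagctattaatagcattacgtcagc
The capitals begin 193, 110 and 110 bases before the start sites of Chac1, Nupr1 and Atf3, in that order.

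Values are log2 of the background-subtracted signal minus log2 of the 75th percentile of the array, so a level of 0 equals that percentile. Levels of different genes come from different probes and are not compared with each other. A difference is the mean of the 2 Torin1 arrays minus the mean of the 2 control arrays, with its standard error from limma, and is also what follows the word at beside a gene name. Intervals of 95% are from the same fit and are not adjusted for the number of genes. That percentile stood at a signal of 371 and 358 in the Torin1 group, 403 and 363 in the tamarixetin group, 340 and 385 in the isorhamnetin group and 367 and 318 in the control group. Replicate arrays correlated at 0.992 to 0.997 over the genes tested, each by its brightest probe. All 15 macrophage markers were well above background on all 4 arrays, 7 of them higher and 4 lower with Torin1, and 0 of 4 B cell, 0 of 4 epithelial and 0 of 4 fibroblast markers were. The T cell genes Cd3e and Lck, the neutrophil genes Elane and S100a8 and the erythroid gene Hba-a1 were also above background on all 4 arrays. Of these, Lck and Elane were lower with Torin1, at -0.60 and -1.13, and S100a8 was higher by 0.27. The call of S100a8 was lost in 6 of 22 alternatives, among them normexp background correction and median scaling. That of Elane was lost without control replicate 1 and without Torin1 replicate 1. Cd3e and Hba-a1 were not called. The fibroblast gene Dcn, above background on both Torin1 arrays and 1 control array, was higher by 1.25, a call lost with normexp background correction and without Torin1 replicate 1, and the endothelial gene Kdr, above background only in control cells, was lower. The part of these markers in the results was not tested. All 8 arrays lay on 1 slide and were read in 1 scan. The Torin1 and tamarixetin arrays filled the second row of the slide and the control and isorhamnetin arrays the first, so slide row and treatment cannot be told apart between Torin1 and control. The Torin1 arrays lay in slide columns 3 and 4 and the control and tamarixetin arrays in columns 1 and 2. Column and treatment therefore cannot be told apart between Torin1 and either of these groups. Torin1 and tamarixetin share a row, and their difference is given for leading genes and lists in the last paragraph.

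After 6 h, 10642 of 21528 genes tested passed an adjusted p of 0.05 between Torin1 and control, 49.4% of them. Of these, 4155 were higher (19.3%) and 6487 lower (30.1%). Most changes were small: 1050 genes were at least 2-fold higher and 576 at least 2-fold lower. At 4-fold or more the order of the directions was the same, with 226 higher and 59 lower. The median difference over all genes was -0.0985. The split depends on the scaling. Scaling each array to its median over all probes gave 2539 higher and 8769 lower genes, with a median of -0.278. Of these probes 44.0% and 46.4% were well above background on the Torin1 arrays and 47.0% and 46.7% on the control arrays. The medians of these arrays thus lay near the background limit. Taking the 75th percentile over probes above background on all 8 arrays gave 5702 higher and 4375 lower, with a median of 0.0396. Each count of a gene list below is therefore to be read against 19.3% higher and 30.1% lower, and each median against -0.0985. Where another scaling moved the larger count of a list, or of a set of lists counted together, by over 1.5 times, its counts are given beside it, and with median scaling 11.8% of all genes were higher and 40.7% lower. The plot of all genes shows the largest changes in each direction.

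**Figure D1:**
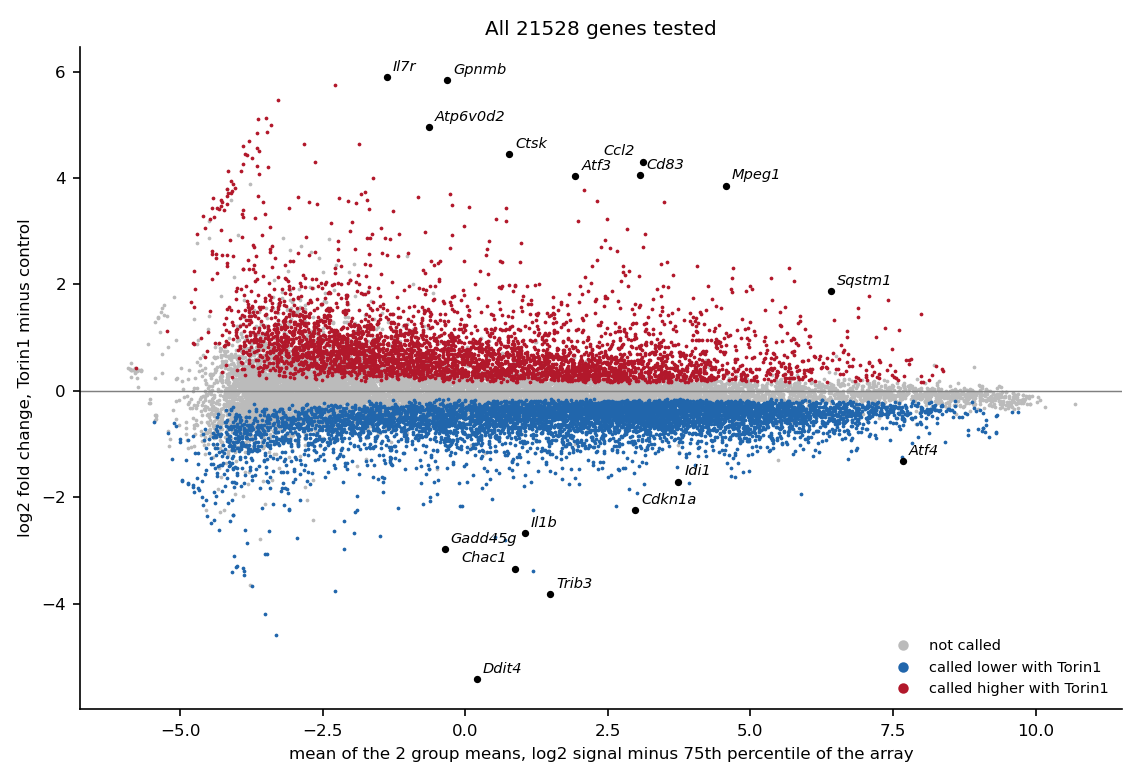
Each point is 1 of 21528 genes, with the mean level of the Torin1 and control groups on the horizontal axis and the log2 difference, Torin1 minus control, on the vertical axis. Red points were called higher and blue points lower at an adjusted p of 0.05, grey points were not called, and black points are named genes, among them Gpnmb at 5.84 and Ddit4 at -5.41.

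Among 30 measured genes for mTOR complexes and their regulators, the largest changes were falls in 3 genes that restrain mTORC1. Ddit4, which encodes the mTORC1 inhibitor REDD1, fell furthest of all genes above background on the 4 arrays, with levels of -2.66 and -2.36 on the Torin1 arrays, against 2.96 and 2.84 on the control arrays. Both Torin1 arrays lay far below both control arrays, a log2 difference of -5.41 ± 0.11 (SE, n = 2 arrays each; adjusted p = 1.64e-05). The tamarixetin arrays had Ddit4 levels of 2.69 and 2.62 and the isorhamnetin arrays 2.92 and 3.04, near control. The sestrins Sesn1 and Sesn2, which restrain mTORC1 when amino acids or energy are short, fell, at -1.27 and -1.26. Of the 30 genes 4 rose and 10 fell, with a median of -0.062. Mtor, the kinase, differed by 0.020 (95% interval -0.23 to 0.27; adjusted p = 0.884). Tsc1, another restraining gene, was higher by 0.71. Rptor, the defining subunit of mTORC1, was higher by 0.65, and Rictor, that of mTORC2, by 0.60 without passing the test (adjusted p = 0.0828). A second, dimmer probe of Rictor was called higher, by 2.155, and Rictor was called in 8 of the 22 alternatives.

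Transcripts of the folliculin complex, which signals amino acid supply to mTORC1 through the Rag GTPases, rose together. Fnip2, encoding folliculin-interacting protein 2, had levels of 4.72 and 4.77 on the Torin1 arrays and 2.29 and 2.34 on the control arrays. All 4 values were tight within their group, and the difference was 2.43 ± 0.051 (adjusted p = 1.64e-05). Its relative Fnip1 rose by 1.23, folliculin itself, Flcn, by 0.84, and the GTPase gene Rragc by 0.70. Another Rag GTPase gene was called lower, at -0.26. The transcripts of the MiT/TFE factors did not move as a group: Mitf rose by 0.54, Tfe3 differed by -0.18 (adjusted p = 0.0771), and Tfeb was lower, at -0.40 (adjusted p = 0.0391). The call of Tfeb was lost without control replicate 2, without either Torin1 array and with normexp background correction, among other settings, and that of Mitf with median scaling. Rragd was not well above background on both arrays of any group. Of 16 genes in this list, 5 rose, 3 fell and 8 were not called (median 0.029).

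Genes for lysosomal enzymes and membrane proteins rose broadly. Across 5 lists of 124 measured genes, proton pump included, 73 rose and 8 fell, with a median of 0.35. With median scaling 40 rose and 16 fell, with a median of 0.18, and with the percentile over probes above background on all 8 arrays 83 rose and 5 fell. Among the proteases 12 of 18 rose and 1 fell, or 7 and 3 with median scaling. Ctsd, for the aspartyl protease cathepsin D, had levels of 7.10 and 7.17 on the Torin1 arrays and 5.78 and 5.84 on the control arrays, groups that lay well apart (difference 1.32 ± 0.065, adjusted p = 1.23e-04). The cysteine proteases Ctsb and Lgmn rose by 1.44 and 1.38 and the dipeptidyl peptidase gene Dpp7 by 1.55. Ctsc, for another dipeptidyl peptidase, was lower, at -0.58. Among glycosidases and sulfatases 16 of 26 rose and 0 fell, or 9 and 2 with median scaling. Naglu and Hexa, for enzymes that break down heparan sulfate and gangliosides, rose by 1.36 and 0.87. Among lipid hydrolases and their cofactors 12 of 21 rose and 2 fell, or 7 and 5 with median scaling. Acp5, for tartrate-resistant acid phosphatase, rose by 1.79, the saposin precursor gene Psap by 0.94, the cholesterol exporter gene Npc1 by 0.93 and the acid lipase gene Lipa by 0.76. Gm2a, for the GM2 ganglioside activator, and Pld4 went the other way, at -0.69 and -0.67.

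Of 39 lysosomal membrane and sorting genes 19 rose and 3 fell (median 0.31), or 9 and 4 with median scaling. Mcoln2, for a calcium channel of the mucolipin family, rose by 3.06 ± 0.21 and Mcoln1, its better-known relative, by 0.74. Clcn7, for the chloride-proton exchanger of lysosomes, rose by 1.37 ± 0.053. Gnptab and Igf2r act in mannose 6-phosphate sorting, the route by which enzymes reach the lysosome, and rose by 1.31 and 0.97. Tmem175, a lysosomal potassium channel gene, rose by 0.86. Laptm4b rose by 1.40, but this call was lost with normexp background correction. Mcoln1 lies outside the rule for named genes and was added for its promoter after its values were seen.

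The proton pump that acidifies lysosomes, the V-ATPase, followed the same pattern. Of 20 subunit genes 14 rose and 2 fell (median 0.41), and with median scaling 8 rose and 2 fell. Atp6v1a, the catalytic subunit gene, had levels of 6.23 and 6.27 on the Torin1 arrays and 4.80 and 4.75 on the control arrays. The groups did not overlap, and the difference was 1.47 ± 0.051 (adjusted p = 5.51e-05). The peripheral sector genes Atp6v1c1, Atp6v1d and Atp6v1g1 rose by 0.90, 1.00 and 0.69, and the membrane sector gene Tcirg1 by 1.28. Atp6v0d2, an alternative membrane sector subunit known from osteoclasts, stood far apart from the other subunits, with levels of 1.81 and 1.88 on the Torin1 arrays and -3.04 and -3.20 on the control arrays and a difference of 4.96 ± 0.14 (adjusted p = 3.22e-05). Atp6v0e2 and Atp6v0a2 were lower, at -0.52 and -0.19, the second of these with an adjusted p of 0.0468 that passed in none of the fits that left out an array. The plot of V-ATPase and cholesterol genes sets these subunits beside the sterol enzymes described below.

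**Figure D2:**
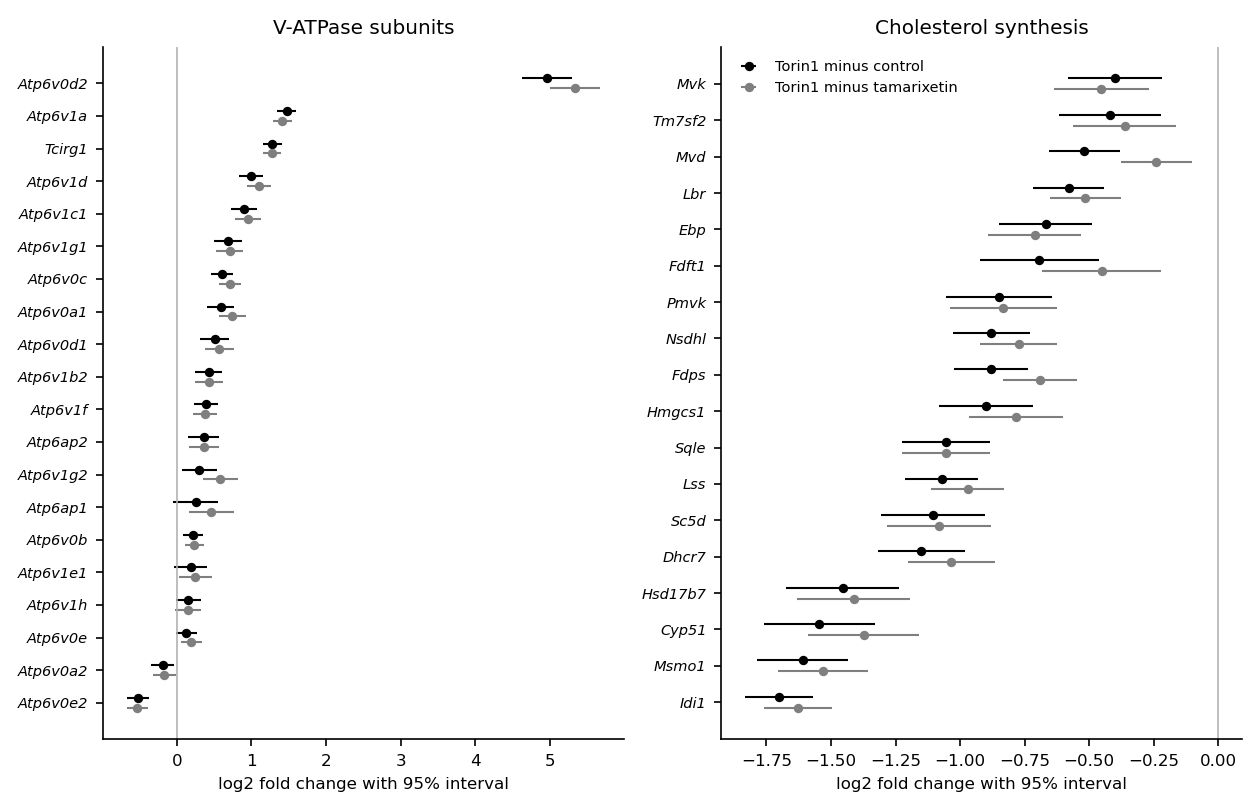
Each row is a V-ATPase subunit or 1 of 18 cholesterol synthesis genes, and the horizontal axis gives the log2 difference with its 95% interval, in black for Torin1 minus control and in grey for Torin1 minus tamarixetin. Of 20 V-ATPase genes 14 were called higher against control, and the 18 cholesterol synthesis genes plotted were called lower.

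Genes known from osteoclasts, though not only from them, held the 3 largest rises among genes with a symbol above background on all 4 arrays. Osteoclasts are bone-resorbing cells of the macrophage lineage that depend on MITF and TFE3. Gpnmb, for a transmembrane glycoprotein of lysosomes and melanosomes, had levels of 2.53 and 2.66 on the Torin1 arrays and -3.28 and -3.20 on the control arrays. The Torin1 arrays lay far above the control arrays, a difference of 5.84 ± 0.066 (adjusted p = 5.51e-06). Atp6v0d2 came next, and Ctsk, for the collagen-degrading protease cathepsin K, rose by 4.44 ± 0.055 (adjusted p = 5.51e-06), with levels of 2.99 and 2.98 on the Torin1 arrays and -1.50 and -1.42 on the control arrays. Of 15 genes in the osteoclast list 10 rose, several of which also belong to the lysosome or V-ATPase lists. Tnfrsf11a, the receptor gene for the osteoclast cytokine RANKL, and Ocstamp, a fusion gene, fell, at -1.09 and -0.94. The levels of the leading genes on every array are plotted by group.

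**Figure D3:**
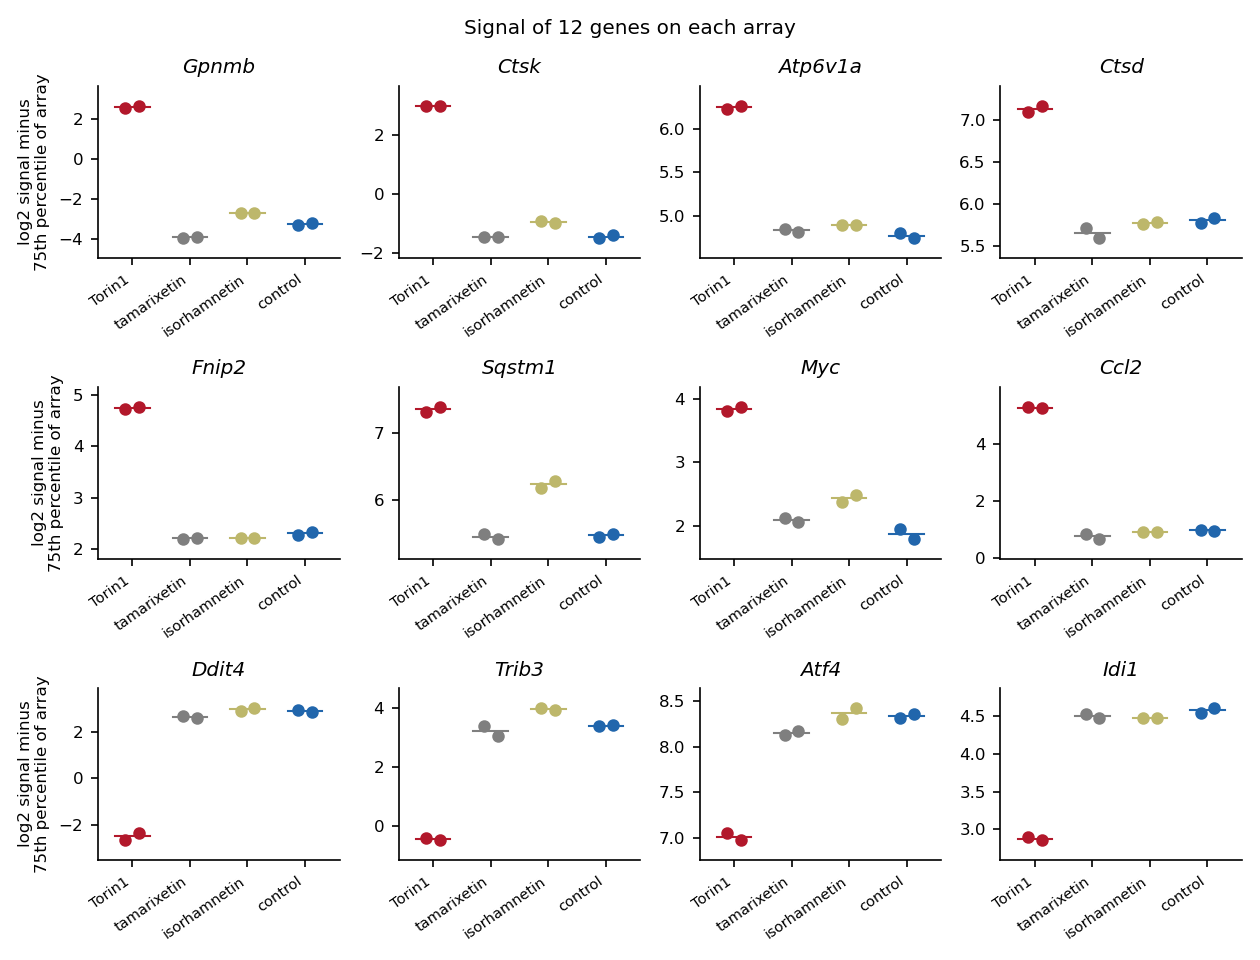
Each panel shows 1 gene, with the log2 level as defined above on the vertical axis and 1 point for each of the 8 arrays, ordered Torin1, tamarixetin, isorhamnetin and control. In each panel the 2 Torin1 points lie apart from the 2 control points, as for Gpnmb at 2.53 and 2.66 with Torin1 and -3.28 and -3.20 in control. Such separation was common, since the 2 groups did not overlap for 17075 of all 21528 genes tested.

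Autophagy genes moved less evenly. Over the machinery and receptor lists 29 of 69 measured genes rose and 11 fell, with a median of 0.15. With median scaling 18 rose and 14 fell, with a median of -0.030, and with the percentile over probes above background on all 8 arrays 42 rose and 7 fell. Sqstm1, for the cargo receptor p62, had levels of 7.31 and 7.39 on the Torin1 arrays and 5.44 and 5.49 on the control arrays and rose by 1.88 ± 0.067 (adjusted p = 6.05e-05). Nbr1, a related receptor, rose by 0.94, and Retreg1, a receptor for endoplasmic reticulum, by 1.09. Calcoco1 was well above background only with Torin1, where it was at least 2.11-fold higher. Bnip3, a mitophagy receptor induced by hypoxia, fell by 1.50 on the log2 scale. Within the machinery 18 of 48 genes rose and 8 fell, or 12 and 10 with median scaling. With the percentile over probes above background on all 8 arrays 30 rose and 5 fell. Plekhm1 and Tecpr1, which act where autophagosomes meet lysosomes, rose most, by 2.19 and 1.52. Atg2a and Atg14, for a lipid transfer protein and a lipid kinase subunit, rose by 1.07 and 0.96, and Map1lc3b, for an LC3 protein, by 0.60. Ulk1, the initiating kinase gene, rose by 0.52, a call lost with median scaling, and Gabarapl1 differed by 0.20 (95% interval -0.092 to 0.49; adjusted p = 0.208). Wdr45b and Tmem41b fell, at -0.95 and -0.80.

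The shares of promoters with the 2 elements can be set beside these lists. Among 32851 promoter windows of 250 bases before to 50 after a start site, 0.974% held TCACGTGA on either strand, and among 10344 measured genes with a window 2.11% did. The 8 letters contain the shorter E-box CACGTG, which 7.15% of the windows held. The core was in 3.62% of 1766 genes called higher and 1.13% of 3803 called lower. In the 4 lysosome lists it was in 10 of 47 windows of genes called higher and in 4 of 31 of genes not called. In the autophagy lists it was in 0 of 24 windows of genes called higher and 5 of 22 of genes not called. Other elements were counted as well. An SREBP site was in 1 of 15 cholesterol synthesis windows and 1.44% of measured genes with a window. A FOXO site was in 2 of 23 windows of the FOXO list and 3.14% of measured genes. An E2F site, TTTCCCGC, was in 6 of 38 DNA replication windows and 2.32% of measured genes. These are counts of letters, not of binding sites, and the lists were chosen with the results known.

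FOXO factor genes and genes known as their targets were mixed, 11 higher and 6 lower of 25 (median 0.20), with 8 higher and 8 lower under median scaling. The 25 are those of 35 such genes on the array that passed the filter on dim probes, Il7r not through the control group. Without that filter 10 of 35 were higher and 4 lower. Their median was then 0.38, to be read against 0.326 for all genes without it. Il7r, for the interleukin 7 receptor, was below the background limit on the control arrays and was at least 45.1-fold higher with Torin1. Its levels were 1.60 and 1.54 on the Torin1 arrays and -4.25 and -4.41 on the control arrays. Klf6, a transcription factor gene, and Gadd45b, a stress gene, rose by 2.23 and 1.45. Bcl2l11, which encodes the death-promoting protein BIM, rose by 2.02 ± 0.068 (adjusted p = 5.14e-05). Foxo1 and Foxo3 themselves differed by 0.15 and 0.20 and were not called, though another probe of Foxo1 was called higher by 0.34. Not called either was Irs2, an insulin receptor substrate, at -0.63 (95% interval -1.28 to 0.032). In the BCL2 family as a whole 7 rose and 6 fell of 16, against 4 and 6 with median scaling. The survival gene Mcl1 was higher by 1.03 and the death-promoting gene Bad lower, at -0.76.

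Genes of the ATF4 program were mostly lower. Over 4 lists of stress regulators, amino acid enzymes, transporters and tRNA synthetases, 59 of 78 measured genes fell and 6 rose, with a median of -0.51. Atf4 itself had levels of 7.05 and 6.98 on the Torin1 arrays and 8.31 and 8.36 on the control arrays, and its difference was -1.32 ± 0.065 (adjusted p = 1.26e-04). Trib3, a pseudokinase gene and one of the most responsive ATF4 targets, fell to -0.39 and -0.45 on the Torin1 arrays, against 3.37 and 3.41 on the control arrays. That gap, -3.81 ± 0.11, was many times the spread within either group (adjusted p = 3.71e-05). Chac1 had levels of -0.64 and -0.95 on the Torin1 arrays and 2.52 and 2.57 on the control arrays, a difference of -3.34 ± 0.12 (adjusted p = 6.34e-05). Nupr1, Ddit3, which encodes CHOP, and Stc2, a secreted glycoprotein gene, fell, at -1.75, -1.47 and -1.48.

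Atf3 moved against the other regulators. It had levels of 3.92 and 3.97 on the Torin1 arrays and -0.087 and -0.092 on the control arrays, a rise of 4.03 ± 0.069 (adjusted p = 1.10e-05), although Atf4 and Ddit3 were lower on the same arrays. The tamarixetin arrays had Atf3 at -0.15 and -0.27 and the isorhamnetin arrays at 0.44 and 0.56. Cebpb, a partner of ATF4 and a macrophage factor, rose too, by 1.23. Atf3 and Chac1 moved in opposite directions although both promoters shown above hold the ATF4 composite core. That core was in 0.895% of all windows and 0.889% of measured genes with a window, against 12 of 61 genes in the 4 ATF4 and amino acid lists. In those lists it was in 8 of 43 windows of genes called lower, 1 of 6 called higher, which was Atf3, and 3 of 12 not called.

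Of 23 amino acid synthesis genes 20 fell and 0 rose (median -0.63). Cth, for the enzyme that makes cysteine from cystathionine, fell, at -1.70, and Psph and Psat1 of serine synthesis at -1.11 and -0.97. Bcat1, of branched-chain amino acid turnover, and Aldh18a1, of proline synthesis, fell, at -1.08 and -1.03. Mthfd2, of mitochondrial one-carbon metabolism, and Asns, asparagine synthetase, fell, at -0.88 and -0.69. Of 20 cytosolic tRNA synthetase genes, whose enzymes load amino acids onto tRNA, 17 fell and 0 rose. The cysteinyl gene Cars and the tyrosyl gene Yars fell most, at -1.20 and -0.91. Transporters were less uniform, 3 higher and 9 lower of 18. The glycine carrier gene Slc6a9 fell by 1.47, and Slc38a7, for a lysosomal glutamine carrier, and Slc38a6 rose by 0.90 and 0.81. Slc7a11, the cystine carrier gene, differed by 0.032 (95% interval -0.11 to 0.17; adjusted p = 0.666). The transcript of Slc7a5, a leucine carrier gene, was lower, at -0.52, a call lost without either control array and without Torin1 replicate 1.

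**Figure D4:**
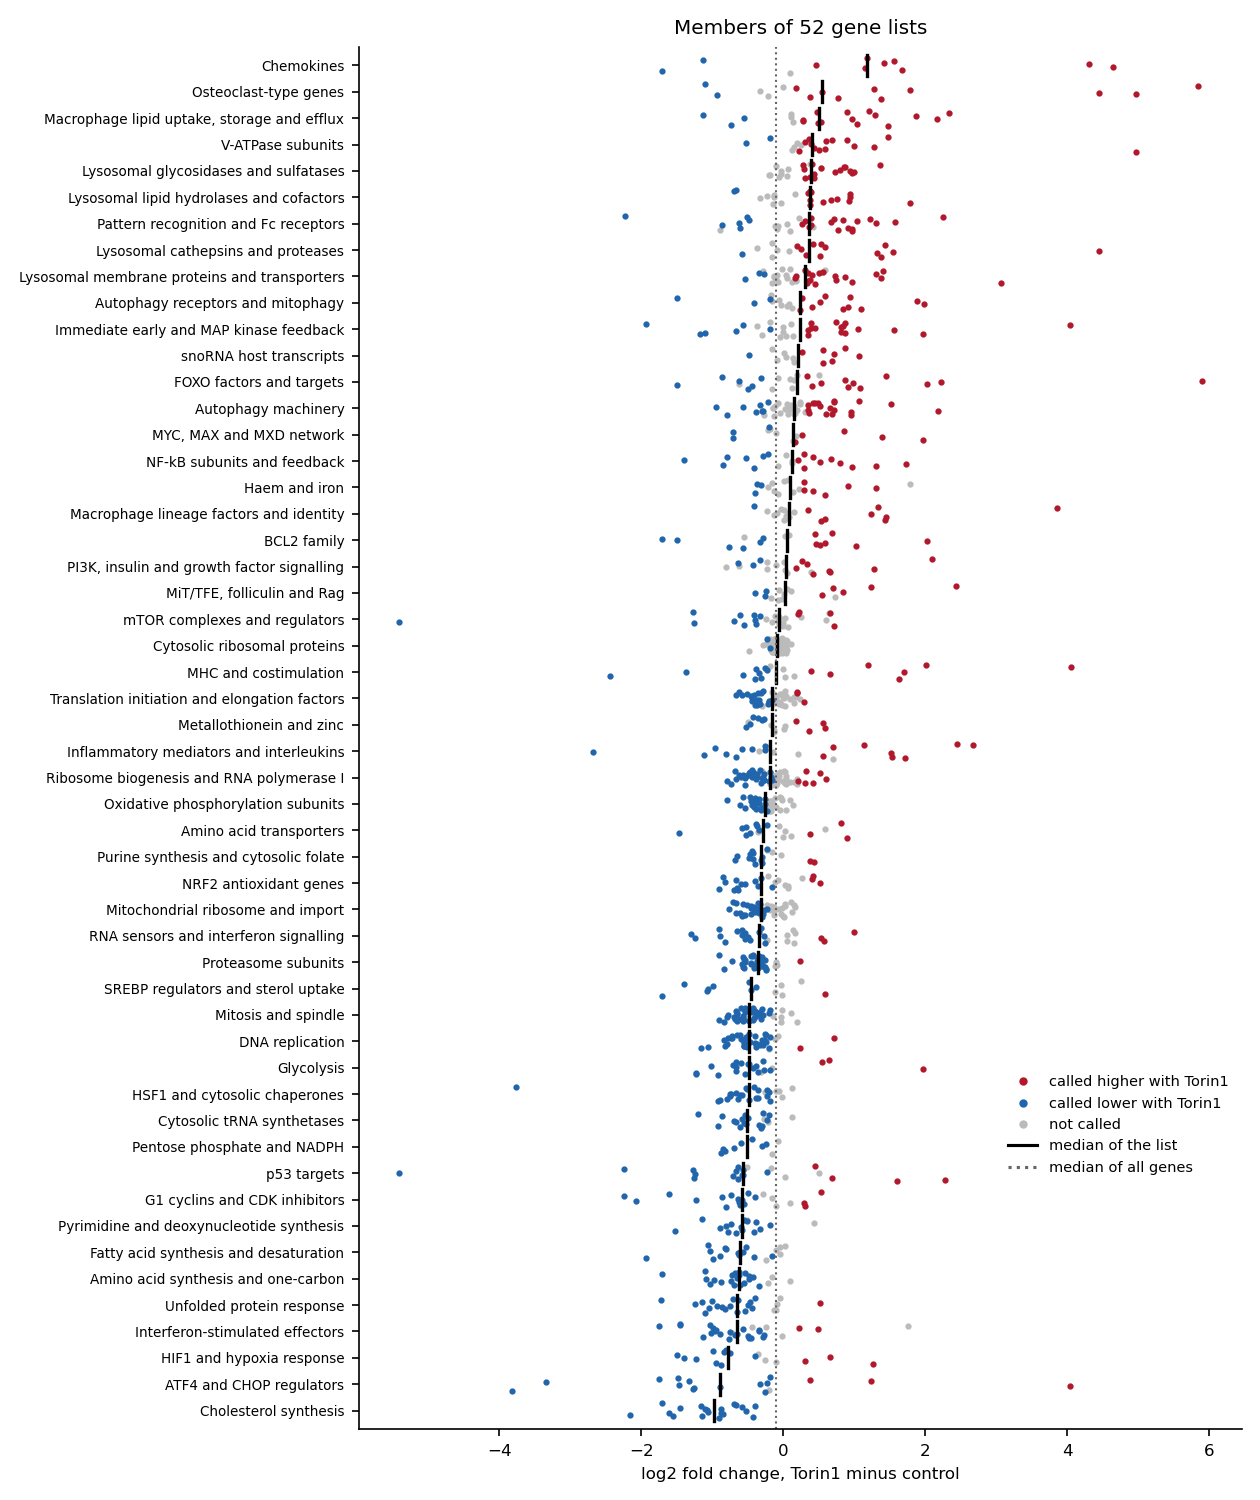
Each row is 1 of 52 gene lists and each point a measured member, placed by its log2 difference between Torin1 and control. Red points were called higher, blue points lower and grey points not called, the black bar is the median of the list, and the dotted line marks the median of all genes at -0.0985.

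Cholesterol synthesis was the most uniform of the 52 lists. All 20 measured enzymes fell, with a median of -0.98, and the list median on the 2 Torin1 arrays was -0.993 and -0.961 relative to control. Idi1, for an isomerase of the isoprenoid steps, had levels of 2.90 and 2.86 on the Torin1 arrays and 4.55 and 4.61 on the control arrays. The 2 groups lay far apart, at -1.70 ± 0.053 (adjusted p = 4.25e-05). Msmo1, Cyp51 and Hsd17b7, for sterol ring enzymes, fell, at -1.61, -1.54 and -1.45. Among regulators, Insig1, for the protein that holds SREBP in the endoplasmic reticulum and itself an SREBP target, fell by 1.71. The sterol transport genes Stard4 and Tmem97 fell, at -1.07 and -1.07. Srebf1 and Srebf2, for the factors themselves, fell less, at -0.46 and -0.48. Mylip, for a ubiquitin ligase and a target of the oxysterol receptors LXR, rose by 0.59.

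Of 19 fatty acid synthesis genes 14 fell and 0 rose (median -0.61). The desaturase gene Scd2 fell most, at -1.93 ± 0.061 (adjusted p = 4.36e-05), followed by Fads2 and Elovl6 at -1.06 and -1.03. Genes for lipid uptake, storage and efflux in macrophages went the other way, with 14 of 20 higher and 3 lower (median 0.51). Ch25h, which makes 25-hydroxycholesterol, rose by 2.33, the fatty acid binding protein gene Fabp4 by 2.17, and Nceh1, a cholesteryl ester hydrolase gene, by 1.87. Abcg1, a cholesterol efflux pump gene, Plin2, for a lipid droplet protein, and Nr1h3, for LXR alpha, rose by 1.48, 1.29 and 1.21. Lpl, lipoprotein lipase, and Scarb1, the HDL receptor, were lower, at -1.13 and -0.73.

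Genes of central metabolism were mostly lower. Of 23 glycolysis genes 18 fell and 3 rose. The monocarboxylate exporter gene Slc16a3 and the phosphofructokinase gene Pfkp fell, at -1.23 and -1.22. Hk3, a hexokinase gene of myeloid cells, rose by 1.97 ± 0.075. Of 16 hypoxia response genes 10 fell and 3 rose (median -0.78). The growth factor gene Vegfa was lower, at -0.81, by its brightest probe, and of its 4 probes 3 were called lower and 1 higher, by 0.73. Also lower was Ankrd37, at -0.98, and Ndrg1 was higher, at 1.26. Hif1a, for the oxygen-regulated factor itself, differed by -0.25 and was not called (95% interval -0.49 to -0.012; adjusted p = 0.0777). Of 10 pentose phosphate and NADPH genes 8 fell, with the entry enzyme gene G6pdx at -0.85. Of 34 nucleotide synthesis genes 27 fell and 2 rose. The thymidine kinase gene Tk1 fell, at -1.53 ± 0.10, the ribonucleotide reductase gene Rrm2 at -1.15 and the thymidylate synthase gene Tyms at -0.90. In mitochondria 22 of 41 respiratory subunit genes and 26 of 43 ribosome and import genes fell and none rose. With the percentile over probes above background on all 8 arrays 13 of the respiratory genes fell and 3 rose, and 23 of the ribosome and import genes fell and 5 rose. Their medians were modest, -0.26 and -0.31, with Ndufab1 at -0.79 and Mrps7 at -0.77.

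Transcripts of cytosolic ribosomal proteins, whose translation mTORC1 is known to control, were mostly not called. Of 78 measured 2 were called lower and 0 higher, below the share of all genes called, and the median of -0.082 was near that of all genes. These counts depend on the scaling, since 27 were lower and 0 higher with median scaling and 0 lower and 11 higher with quantile normalization. One of those calls, Rpl5, was lost in all 8 fits that left out an array. Of 67 genes that build ribosomes 33 fell and 6 rose, with Tcof1, a cofactor of ribosomal RNA transcription, at -0.79 and Polr1c, a polymerase subunit gene, at 0.60. Of 46 translation factor genes 20 fell and 3 rose, with the initiation factor gene Eif2b1 at -0.67. With quantile normalization 11 of the translation factor genes fell and 11 rose.

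Protein folding and degradation genes fell more. Of 37 proteasome subunit genes 33 fell (median -0.36), most of all the immunoproteasome genes Psmb8 and Psmb9, at -0.91 and -0.83. Of 23 genes of the unfolded protein response 18 fell and 1 rose. Herpud1, of endoplasmic reticulum-associated degradation, had levels of 3.11 and 3.01 on the Torin1 arrays and 4.70 and 4.86 on the control arrays and fell by 1.72 ± 0.10 on the log2 scale. The chaperone gene Hspa5 fell by 1.24. The gene that rose was Ern1, for the stress sensor IRE1, by 0.52, and its call was lost with median scaling. Of 27 cytosolic chaperone genes 22 fell and 0 rose. Hspa1b, an inducible HSP70 gene, was above background only in control cells and was at least 8.42-fold lower with Torin1.

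Cell cycle genes were mostly lower. Of 47 DNA replication genes 41 fell, and of 45 mitosis genes 38 fell, with medians of -0.48 and -0.48. The licensing factor gene Cdc6 fell, at -1.16 ± 0.070, the checkpoint gene Clspn at -1.06 and the mitotic kinase genes Aurkb and Aurka at -0.90 and -0.79. Cdt1, the partner of Cdc6 in licensing, rose by 0.72. Among G1 genes 14 of 21 fell, and 7 of the 15 left without the edge rows of the arrays. The D-type cyclin genes Ccnd1 and Ccnd3 fell, at -0.81 and -1.61. Ccnd2 fell by 2.07, but without the edge rows of the arrays, where another probe stood for it, the difference was -0.14 and was not called. Cdkn1a, for the cell cycle inhibitor p21, fell as well, with levels of 1.86 and 1.87 on the Torin1 arrays and 4.13 and 4.07 on the control arrays and a difference of -2.23 ± 0.063 (adjusted p = 3.41e-05). Cdkn1b, for the inhibitor p27, differed by -0.15 and was not called (95% interval -0.31 to -0.00048; adjusted p = 0.0875).

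Of 21 p53 target genes 13 fell, among them Phlda3 at -1.24, named after its value was seen, and 4 rose, among them the death receptor gene Fas at 1.60 and the kinase gene Plk2 at 2.28, or 0.50 with normexp background correction. Myc, whose product promotes growth and ribosome production, had levels of 3.81 and 3.88 on the Torin1 arrays and 1.95 and 1.79 on the control arrays. The Torin1 arrays were higher by 1.97 ± 0.078 (adjusted p = 7.31e-05), while the growth genes listed above were mostly lower. Its antagonists Mxd4 and Mnt rose too, by 1.39 and 0.86, that of Mxd4 being 0.42 with normexp. The signalling genes of PI3K and insulin gave 8 higher and 3 lower of 20, or 4 and 6 with median scaling, with the regulatory subunit gene Pik3r5 at 1.28. Igf1, for insulin-like growth factor 1, was at -0.57 and -2.56 on the Torin1 arrays, which disagreed with each other, and at -3.50 and -3.82 on the control arrays. Its call (adjusted p = 0.0414) was lost in 7 of the 8 fits that left out an array.

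**Figure D5:**
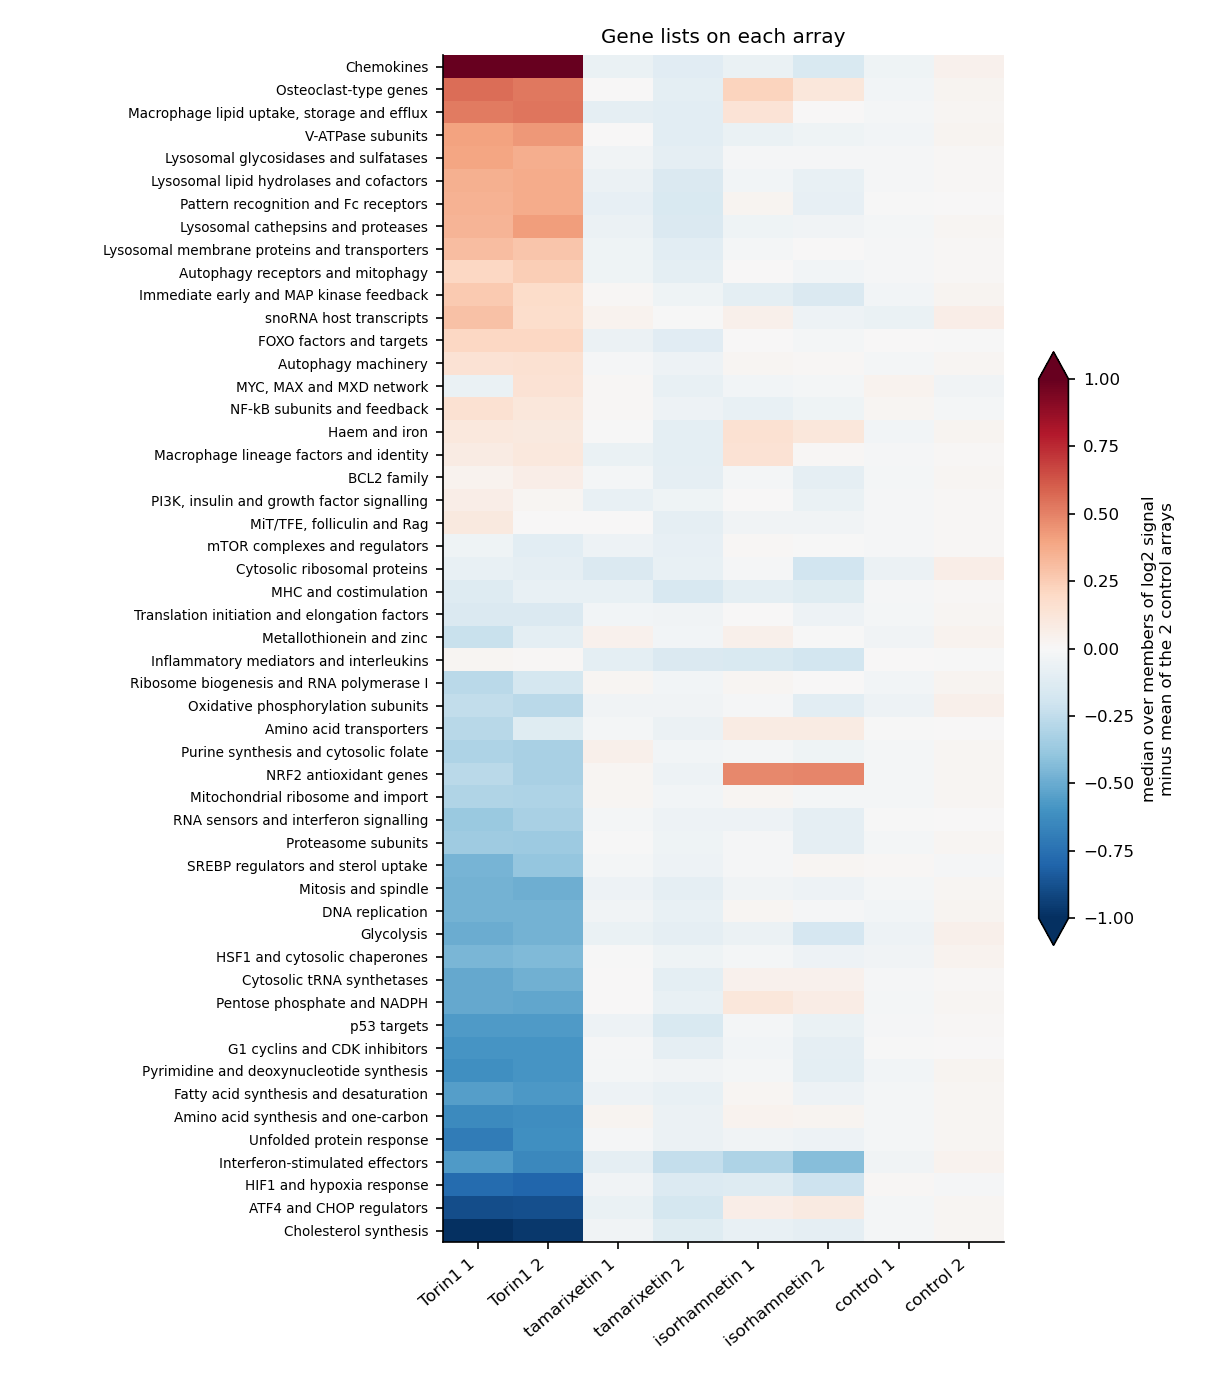
Each row is 1 of 52 gene lists and each column 1 of the 8 arrays, and the colour gives the median over the list of the log2 level minus the mean of the 2 control arrays. The 2 Torin1 columns carry the strong colours for most lists and match each other, as for cholesterol synthesis at -0.993 and -0.961.

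Chemokine genes gave the highest median of the 52 lists, 1.18, with 8 of 11 higher and 2 lower. The 11 are those of 18 chemokine genes on the array that passed the filter on dim probes, Ccl7 through the Torin1 group alone. Without that filter the median was 0.57, to be read against 0.326 for all genes without it. Ccl2, which draws monocytes, had levels of 5.30 and 5.25 on the Torin1 arrays and 0.98 and 0.96 on the control arrays. The Torin1 arrays were higher by 4.31 ± 0.071 (adjusted p = 1.07e-05) or 19.8-fold. Ccl7, for another monocyte attractant, was above background only with Torin1, at least 20.9-fold higher. Cxcl2, for a neutrophil attractant, rose by 1.68 and Ccl4 and Ccl9 by 1.56 and 1.42. The 2 that fell were Cxcl10, an interferon-induced chemokine gene, at -1.13, and Cxcl14, at -1.71.

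The inflammatory mediators split. Il1rn, for the interleukin 1 receptor antagonist, and Il10, for an anti-inflammatory cytokine, rose by 2.68 ± 0.055 and 2.45 ± 0.12. Il1b, for interleukin 1 beta, had levels of -0.34 and -0.25 on the Torin1 arrays and 2.42 and 2.34 on the control arrays, a difference of -2.67 ± 0.080 (adjusted p = 3.79e-05). Acod1, for the itaconate-making enzyme, and Csf3, for a granulocyte growth factor, rose by 1.71 and 1.51, and Tnf by 0.56, a call lost with median scaling. In all 8 rose and 9 fell of 22, or 9 and 6 with the percentile over probes above background on all 8 arrays. NF-kB genes were also split, 10 higher and 7 lower of 21, or 5 and 7 with median scaling, with the feedback inhibitor gene Tnfaip3 at 1.73, the subunit gene Relb at 0.97 and the early gene Ier3 at -1.40. Of 30 immediate early and MAP kinase feedback genes 15 rose and 6 fell, or 10 and 9 with median scaling. Dusp4, a phosphatase gene, and Egr3 rose by 1.97 and 1.57, the second by 0.40 with normexp, whereas Egr1 and Dusp2 fell, at -1.94 and -1.17.

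Interferon genes fell. Among sensors and signalling factors 16 of 25 fell, with the RNA sensor genes Ddx58 and Dhx58 at -1.25 and -1.30 and the regulator gene Irf7 at -0.90. Among effectors 22 of 29 fell (median -0.65). Rtp4 fell, at -1.75 ± 0.10, Isg15, for a ubiquitin-like protein, at -1.45 and Igtp, for an immunity GTPase, at -1.45. Socs3, a feedback inhibitor of cytokine receptors, rose by 1.00. Relative to control, the median level of these effectors was -0.57 and -0.65 on the Torin1 arrays. It was -0.087 and -0.24 on the tamarixetin arrays, and -0.31 and -0.43 on the isorhamnetin arrays. Set directly against tamarixetin, 17 of the 29 were lower with Torin1 and 1 higher, with 24.1% of all genes lower and 19.1% higher. Against isorhamnetin 10 were lower and 4 higher (median -0.17), with 26.6% of all genes lower and 15.6% higher.

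Genes for pattern recognition, its adaptors and Fc receptors were more often higher than lower, 17 of 31 against 6 (median 0.37), or 11 against 8 with median scaling. Tlr13, a sensor of bacterial ribosomal RNA, rose by 2.25 ± 0.064, and the Fc receptor genes Fcgr2b and Fcgr3 rose by 1.58 and 1.31. Fcgr1, the high-affinity Fc receptor gene, fell, at -2.23 ± 0.13, and the adaptor gene Myd88 at -0.87. In the antigen presentation list 7 rose and 9 fell of 20, or 7 and 5 with the percentile over probes above background on all 8 arrays. Cd83, a maturation marker of dendritic cells, had levels of 5.06 and 5.13 on the Torin1 arrays and 1.09 and 0.99 on the control arrays and rose by 4.05 ± 0.079 (adjusted p = 1.41e-05). Cd274, for the checkpoint ligand PD-L1, rose by 2.00. H2-DMa, for a class II loading protein, was lower, at -1.37, and H2-DMb1, its partner, was above background only in control cells and at least 1.47-fold lower with Torin1. Mpeg1, for the pore-forming protein perforin 2, led the macrophage identity list, in which 8 of 20 rose and 1 fell. It had levels of 6.50 and 6.49 on the Torin1 arrays and 2.61 and 2.67 on the control arrays, a rise of 3.85 ± 0.053 (adjusted p = 7.20e-06). Adgre1, for the F4/80 antigen, rose by 1.43. Spi1, for the lineage factor PU.1, was lower, at -0.41, a call lost in 3 of the 8 fits that left out an array.

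Among genes above background on all 4 arrays, those that rose far outside these lists were of many kinds. Rgs1, a regulator of G protein signalling, rose by 3.77 ± 0.057, Klhl24, a ubiquitin ligase adaptor gene, by 3.71 ± 0.14 and Rasgef1b, a Ras-family exchange factor gene, by 3.57 ± 0.10. Pmp22, for a myelin protein also made outside nerve, Hal, for histidine ammonia-lyase, and Gda, for guanine deaminase, rose by 3.54, 3.65 and 3.46. Hyal1, for a lysosomal hyaluronidase, and Naa80, for an actin acetyltransferase, rose by 3.70 and 3.37, but these genes overlap in the RefSeq annotation and were dim. With normexp background correction the 2 differences were 1.90 and 2.14. Normexp, run with an offset of 50 added to every signal, brought the differences of 35 called genes named in the text nearer to 0 by more than 1.5 times, and 31 of these kept their call. Among them the difference was 3.40 for Il7r, 1.75 for Mcoln2, 2.39 for Hal and 0.74 for Ch25h. It was 0.64 for Fcgr3, -0.86 for Insig1, -1.19 for Pdcd1, -1.45 for Trp53i11, -0.89 for H2-DMa, -0.80 for Dhx58, -0.81 for Phlda3 and -0.33 for Ocstamp.

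Among genes that fell, Gadd45g, a stress gene, had levels of -1.82 and -1.87 on the Torin1 arrays and 1.15 and 1.08 on the control arrays (difference -2.96 ± 0.054; adjusted p = 1.33e-05), and Dusp14, a phosphatase gene, fell, at -2.75 ± 0.073. Pdcd1, for the checkpoint receptor PD-1, fell, at -2.23, Trp53i11, a p53-induced gene, at -2.72, and Ccn4, a secreted matrix protein gene, at -2.17. Of the genes above background in 1 group only, 209 were called higher and not well above background in control cells, and 334 were called lower and not well above background with Torin1. Fam20c, for a kinase of secreted proteins, was at least 22.8-fold higher and Cxcr4, a chemokine receptor gene, at least 7.79-fold. Rora, for a nuclear receptor, was at least 8.46-fold higher. Arc, best known from neurons, was at least 7.09-fold lower, Aqp9, for a glycerol channel, at least 2.87-fold and Sucnr1, for the succinate receptor, at least 2.83-fold. Of the 2 probes of Aqp9 only 1 was called lower, and the other differed by -0.086. Gpat3, for a lipid synthesis enzyme, was at least 5.5-fold lower, but without the edge rows another probe stood for it and gave 0.42 in the other direction. Bounds are on the scale of the background-subtracted signal, and most of those printed are larger than the fold fitted with normexp. There the log2 differences were 2.77 for Fam20c, 1.39 for Cxcr4, 1.27 for Rora, 2.34 for Ccl7, 0.48 for Calcoco1, -1.70 for Arc, -0.999 for Aqp9, -0.94 for Sucnr1, -1.69 for Hspa1b, -0.63 for H2-DMb1 and -1.17 for Gpat3.

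Torin1 was also set against tamarixetin, whose arrays lay in the same row of the slide but in other columns. Of 21528 genes 9293 were called, 43.2%, with 4111 higher (19.1%) and 5182 lower (24.1%). With median scaling the split was 2557 higher and 5457 lower, and with the percentile over probes above background on all 8 arrays 5346 higher and 3964 lower. Against isorhamnetin 9095 genes were called, 42.2%. The comparisons share the Torin1 arrays, so their values are given side by side and not as a check of each other. Against tamarixetin, Gpnmb differed by 6.50, Atp6v0d2 by 5.34, Ctsd by 1.47 and Sqstm1 by 1.90, and against control by 5.84, 4.96, 1.32 and 1.88. Ddit4 differed from tamarixetin by -5.16, Trib3 by -3.65, Chac1 by -3.31 and Atf3 by 4.15. The sterol gene Idi1 differed by -1.63, Il1b by -2.21, Ccl2 by 4.52 and Myc by 1.75. All of these were called within the row and had the direction seen against control. By lists, 78 of 124 lysosome and V-ATPase genes were higher than with tamarixetin and 8 lower, and 20 of 20 cholesterol synthesis genes were lower. In the 4 ATF4 and amino acid lists 52 of 78 were lower and 6 higher, and 35 of 47 DNA replication genes were lower.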

How the data were processed

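Transcripts were measured on 8 one-colour Agilent arrays, 4 groups of 2, grouped by their treatment labels. Per the submitters' processing notes, arrays were read with Agilent Feature Extraction 10.7.1.1. Per the file headers, the deposited intensity is background-subtracted and spatially detrended, without scaling between arrays. The series also holds values deposited by the authors on a log2 scale, centred on each probe's median, which were used as an alternative and came within 0.01 of the scaling used here for 99.84% of probes. Column totals are not depths on arrays, and the number of arrays limits the precision.

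Outlier spots were dropped, which lost 323 probes, and replicate spots averaged. Each array was scaled to the 75th percentile of 56605 non-control probes, and a probe stayed in if some group had it well above background on both of its arrays, which left 27562. Probes were named through RefSeq accessions (32994 matched, 23611 did not). The brightest probe stood for each gene, a choice that concerned 4845 genes, of which 85 had probes called in both directions. Of 21528 genes tested 12935 had a symbol. The test was limma's (version 3.58.1, lmFit and eBayes, under R version 4.3.3, with data.table at 1.17.8), fitted on all 8 arrays with 4 residual degrees of freedom, two-sided, with Benjamini-Hochberg adjustment over all genes tested and calls at an adjusted p of 0.05. With 2 arrays a group an exact permutation test cannot give a p under 0.05. A gene well above background in 1 group only is given as a lower bound, at least N-fold, from that group's mean against the lowest signal well above background on each array of the other group, or the gene's own signal where higher. The scripts were tested on simulated data.

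Named genes were the 15 largest changes in each direction with a symbol, called, above background on all 4 arrays and not overlapping between groups, up to 8 bounds in each direction, up to 6 called members of each of 52 lists with up to 2 that moved against the majority of the list, and a fixed panel. The comparison, the lists, the panel and the rule were chosen with earlier results of these data known. Lists share some members, such as Ctsk, Bnip3 and Sesn2. Not all genes under the rule are described, and results for some are not reported here. Any named outside it are said to be. The cell type markers are from a list of their own. Alternatives covered background correction, scaling, filters, probe choice, edge rows, limma settings, the replicate number as a block and each array left out, plus 2 percentile settings chosen after seeing the data. Replicate numbers did not pair the arrays (correlations of deviations between -0.131 and 0.0831). Of columns with per-sample values, 0 were unmatched. Array coordinates are of build mm9 and are not printed.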

Additional observations from a re-analysis of the deposited data

How the results depend on the processing

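Of 218 called genes named in the text, 201 kept their call and direction under all 22 alternatives in which they were measured, and 208 in all 8 fits that left out an array. The number of genes called between Torin1 and control was between 7479 and 10875 with an array left out, and 9711 with the replicate number as a block. Between Torin1 and tamarixetin it was between 6585 and 8736 and 8304 with the block, and between Torin1 and isorhamnetin between 6186 and 9173 and 8027 with the block. Without the filter on dim probes 7231 genes were called for control, 5587 for tamarixetin in place of 9293 and 19940 for isorhamnetin in place of 9095 (cause not tested), over 45380 genes. Gpat3 was at 0.42 without edge rows. Median scaling and the percentile over probes above background on all 8 arrays each shift all genes by 1 common amount. The median of all genes was -0.278 and 0.0396 with them, in place of -0.0985. Medians of lists near 0 changed sign, and for the other settings the cause was not tested. With median scaling they were -0.14 for PI3K, -0.031 for autophagy machinery, -0.044 for the MYC network, -0.13 for the BCL2 family, -0.054 for NF-kB, -0.10 for macrophage identity and -0.077 for haem and iron. With quantile normalization they were 0.019 for mTOR complexes, 0.077 for ribosomal proteins, 0.013 for translation factors and 0.011 for antigen presentation. With the percentile over probes above background on all 8 arrays they were 0.076 for mTOR complexes, 0.056 for ribosomal proteins and 0.041 for antigen presentation. Without the filter they were 0.20 for inflammatory mediators and 0.083 for antigen presentation, both below the median of all genes there, 0.326. Without edge rows the list medians were -0.10 for the MYC network, -0.024 for the BCL2 family and 0.071 for antigen presentation. With arrays left out the median of the MYC network was between -0.063 and 0.14, and below 0 without control replicate 2 (-0.046) and Torin1 replicate 2, and that of the inflammatory mediators between -0.21 and 0.020, and above 0 without either Torin1 array (0.015 without replicate 1). Signal over background limits dim genes, whose differences shrank with normexp. Nothing in the sources separates treatment from slide row and column between Torin1 and control, or from slide column between Torin1 and tamarixetin. With an array left out a lone array was assumed to vary like the other groups.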

Other observations

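Transcripts that host small nucleolar RNAs, some of which are known to be degraded as they are translated, were called higher more often than lower. Of 14 measured, 7 were called higher with Torin1 and 1 lower (median 0.21). Epb41l4aos had levels of 3.80 and 3.72 on the Torin1 arrays and 2.59 and 2.80 on the control arrays, a difference of 1.07 ± 0.089 in limma (adjusted p = 5.50e-04). Snhg20, Snhg6, Snhg1 and Snhg12 were higher by 0.87, 0.71, 0.69 and 0.56. Snhg9 was the 1 called lower, at -0.48, and this call was lost without either control array and without Torin1 replicate 1. Against tamarixetin 7 of 14 were higher and 0 lower.

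Genes of the NRF2 antioxidant response were mostly lower, 13 of 23, with 3 higher. Srxn1, for sulfiredoxin, had levels of 3.51 and 3.51 on the Torin1 arrays and 4.28 and 4.55 on the control arrays, a difference of -0.90 ± 0.10 in limma (adjusted p = 0.00126), and Gclm, for a subunit of the glutathione-making ligase, was at -0.65. Keap1, which encodes the protein that marks NRF2 for degradation, was lower as well, at -0.67. Metal and haem genes gave no common direction: 6 of 18 haem and iron genes were higher and 3 lower (3 and 4 with median scaling), and 4 of 16 metallothionein and zinc genes were higher and 6 lower. Flvcr1, a haem exporter gene, was higher by 1.30, and Slc39a7, a zinc transporter gene, was at -0.52. Among genes without a symbol, 1923 were called higher and 1783 lower, and they are not described further.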
